A study of Homo sapiens and Homo sapiens
Mus musculus and Mus musculus with 9 samples.

Results

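The genes described here are the human Wnt ligands, their receptors, the secreted antagonists and R-spondins that tune them, and the cytoplasmic and nuclear members that carry the signal or are induced by it. They were chosen by symbol, as every protein-coding gene named WNT, FZD, SFRP, DKK or RSPO with its number, together with 16 further genes of the pathway, and they make up 57 of the 41713 genes in the table, of which 19939 are protein-coding. Of the members, 19 were ligands, 14 receptors (counting the R-spondin receptors LGR4 and LGR5), 6 R-spondins or ligases of receptor turnover, 10 secreted antagonists and 8 cytoplasmic or nuclear proteins.

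The series holds 9 RNA-Seq libraries in groups of 3. C4-2B, a human prostate cancer line, was grown alone, MC3T3-E1, a mouse osteoblast line, was grown alone, and C4-2B was mixed with MC3T3-E1 at 1 to 30 cells. All cells carry the label WT, and each culture had 10% serum. The table used here holds human genes in 6 libraries, those of C4-2B alone and of the mixed co-culture, and the MC3T3-E1 libraries were not analysed here. Each value used is the authors' mean over these 6 libraries, with the 2 groups together, so no sentence below compares the co-culture with C4-2B alone. The p-values and fold changes of the authors' own comparison were not used.

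Wnt proteins bind a Frizzled receptor and a co-receptor, LRP5 or LRP6, at the cell surface. In the canonical pathway this keeps the complex of AXIN, APC and the kinase GSK3 from marking β-catenin (CTNNB1) for destruction, and β-catenin then joins TCF and LEF factors on target genes. AXIN2, NKD1, RNF43, ZNRF3, NOTUM and LGR5 are among the known targets, and several of them feed back on the pathway. In bone, Wnt ligands promote osteoblast differentiation and their antagonists, DKK1 among them, oppose it.

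The cells were checked against their markers. Of 20 luminal prostate markers, 18 were matched by symbol, and all 18 had a mean of at least 10 with Xenome, with a list median of 10101 normalised reads. Of 30 osteoblast and mesenchymal markers, 12 reached a mean of 10 with Xenome, with a list median of 5.44, and FN1 held 40055 of the list's summed mean of 44800. Osteoblast markers in a human table can come from the human cells or from mouse reads that were kept, and these were not told apart here.

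The whole table was made in 3 ways from the same reads, and 2 coding stretches are shown here because WNT7A is among the members that differed between Kallisto and Xenome and SFRP2 among those that differed between XenofilteR and Xenome. Capitals mark a run in which every sequence of 31 bases also occurs in mouse transcripts, and lower case marks the 20 coding bases on each side. Both lie on the minus strand in GRCh38 and were read 5′ to 3′ from GENCODE release 44. The printed WNT7A sequence lies in exon 3 at chr3:13854585-13854716, with the capitals at chr3:13854605-13854696. The printed SFRP2 sequence lies in exon 1 at chr4:153788406-153788513, with the capitals at chr4:153788426-153788493.
WNT7A: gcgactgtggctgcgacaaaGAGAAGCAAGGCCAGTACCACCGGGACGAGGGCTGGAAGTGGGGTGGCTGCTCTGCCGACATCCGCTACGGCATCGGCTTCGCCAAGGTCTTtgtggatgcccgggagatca
SFRP2: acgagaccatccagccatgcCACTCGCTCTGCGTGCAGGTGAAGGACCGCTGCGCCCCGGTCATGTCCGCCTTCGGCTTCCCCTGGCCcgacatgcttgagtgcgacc
The shared run was 92 bases in WNT7A and 68 bases in SFRP2, and the whole run was found in the transcripts of mouse Wnt7a and of mouse Sfrp2, respectively. Longer shared coding runs than that of WNT7A were found in WNT11 (206 bases), TCF7L2 (161), FZD4 (122), FZD2 (119), WNT2 (97) and TCF7 (93). Reads were 50 bases long and paired. Over the members, a median of 1.90% of the distinct sequences of 31 bases also occurred in mouse transcripts, against a median of 0.502% over protein-coding genes. The share was 11.3% for TCF7L2, 9.30% for WNT11, 7.88% for SFRP2 and 7.22% for FZD7.

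To see which parts of the pathway the human cells transcribe, the authors' means were compared by role. With Xenome, 31 of 57 members had a mean of at least 10 normalised reads, against 66.9% of protein-coding genes. A mean of at least 10 was found for 12 of 14 receptors, 8 of 8 cytoplasmic and nuclear members, 8 of 19 ligands, 3 of 6 R-spondins and ligases, and 0 of 10 secreted antagonists. The median Xenome mean was 1751 for the receptors, 411 for the cytoplasmic and nuclear members, 7.95 for the ligands and 0.650 for the antagonists, with members that have no value counted as 0 and no division by length. With Kallisto these medians were 1815, 526, 43.4 and 0.816 in the same order, so the ligand median depended on the pipeline. The median of the R-spondins and ligases did too, at 6.91 with Xenome and 31.8 with Kallisto.

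**Figure D1:**
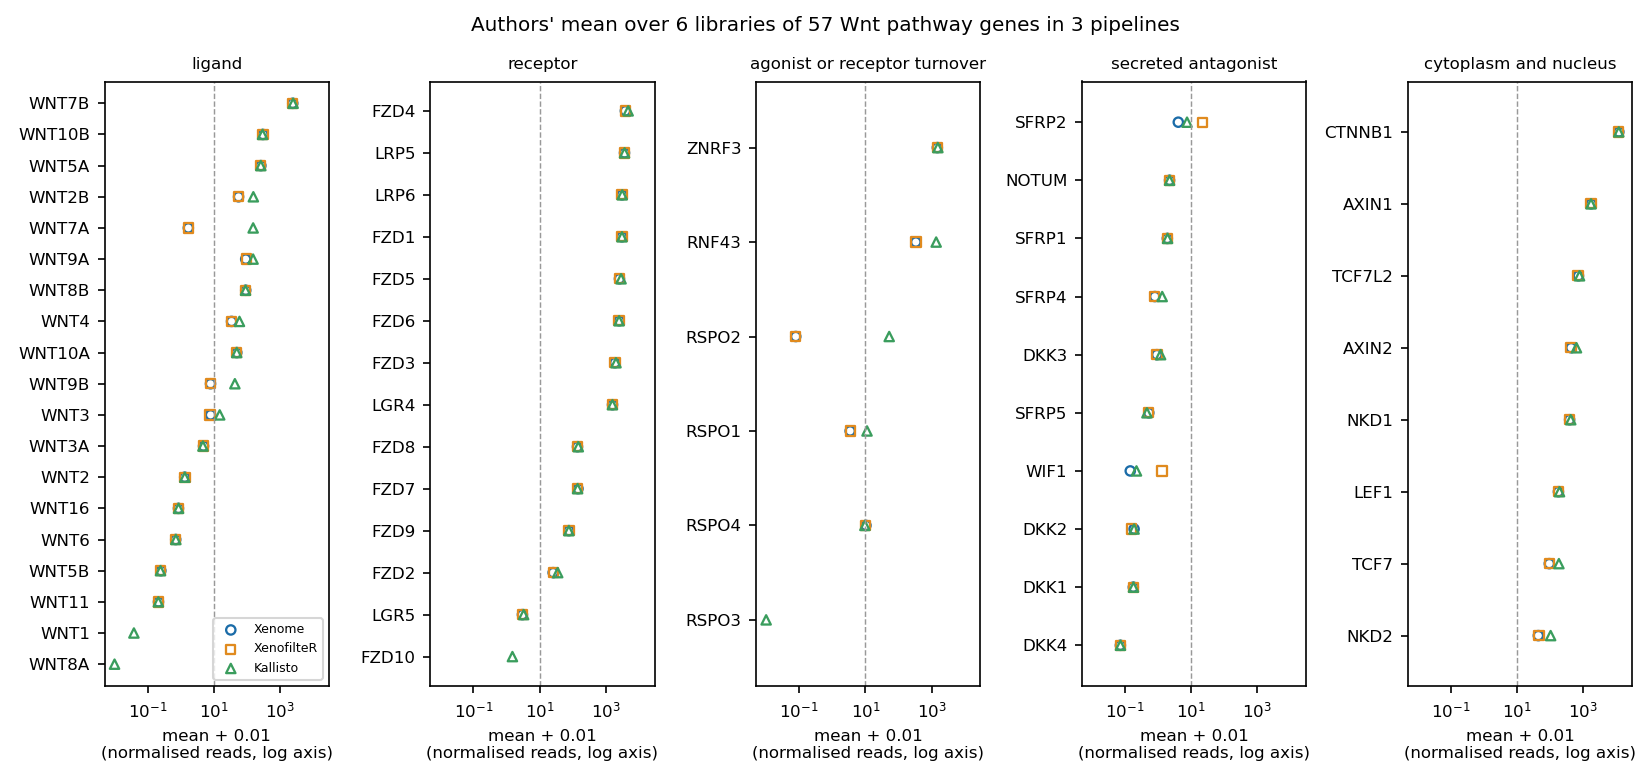
The horizontal axis gives the authors' mean of normalised reads over 6 libraries plus 0.01 on a log axis, with 1 row a gene, 1 panel a role, and circles, squares and triangles for Xenome, XenofilteR and Kallisto. The dashed line marks a mean of 10: all 8 cytoplasmic and nuclear members lie to its right with each pipeline, while 9 of the 10 secreted antagonists lie to its left with each pipeline and SFRP2 crosses it with XenofilteR.

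The order of levels between genes was taken per kb of exon (the union of all annotated exons). On that scale CTNNB1, at chr3:41194741-41260096 on the plus strand, had the highest Xenome mean, 1020 normalised reads per kb. FZD6 followed at 627, LRP5 at 598, FZD4 at 531 and WNT7B at 480 normalised reads per kb. The next places were taken by FZD1 (447), FZD5 (369), LRP6 (300), LGR4 (252) and AXIN1 (232). Thus 7 of these 10 members were surface receptors, and WNT7B was the one ligand among them. The order depended on the length used, and so did the set. With coding length, 9 of these 10 stayed among the 10 highest, and FZD3 took the place of LGR4. Per kb of coding sequence, CTNNB1 was still first of these 10, at 4976 normalised reads per kb, but FZD4 (2436), WNT7B (2036), FZD1 (1586) and FZD5 (1481) came before FZD6 (1195) and LRP5 (745). The spread over libraries is not known for these means, so the order between neighbours was not tested. The means given by role in what follows are not divided by length unless a sentence says so, and they give no order between genes.

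Among the ligands, WNT7B was highest per kb of exon, at 480 normalised reads per kb with Xenome, followed by WNT10B at 117, WNT8B at 43.1 and WNT5A at 37.0. Per kb of coding sequence (1143 bases in WNT5A and 1053 in WNT8B), WNT5A came before WNT8B. The order of these 2 ligands thus depended on the length used and was not tested. In the single libraries given further below, and not per kb, WNT8B ran from 64.3 to 117 and WNT5A from 127 to 325 normalised reads. Without division by length, the Xenome mean was 2439 normalised reads for WNT7B, 305 for WNT10B and 265 for WNT5A, a ligand known for signalling that does not pass through β-catenin. WNT8B (92.4), WNT9A (92.3), WNT2B (56.1), WNT10A (49.6) and WNT4 (34.4) also had a Xenome mean of at least 10. With Kallisto, WNT7A (155), WNT9B (43.4) and WNT3 (15.1) passed that level too, where Xenome gave 1.69 for WNT7A and 7.95 for WNT9B. WNT3A had a mean of 4.89 and WNT2 of 1.31 with Xenome, and WNT16, WNT6, WNT5B and WNT11 lay between 0.203 and 0.846. WNT1 and WNT8A had no Xenome value, and Kallisto listed WNT1 at 0.0285 and WNT8A at 0.

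Among the receptors, FZD4 had a Xenome mean of 3924 normalised reads, with LRP5 at 3694, LRP6 at 3110 and FZD1 at 3079. FZD5 (2599), FZD6 (2548), FZD3 (1900) and LGR4 (1602) came next in Xenome mean. FZD7 (145), FZD8 (140), FZD9 (76.9) and FZD2 (25.7) also had a mean of at least 10. LGR5, a receptor of R-spondins and a stem cell marker in the intestine, had a mean of 3.02, which is 0.579 normalised reads per kb, against 252 per kb for LGR4. FZD10 had no Xenome value and stayed under 10 with Kallisto.

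R-spondins act through LGR receptors and keep the ligases RNF43 and ZNRF3 from removing Frizzled receptors from the cell surface. ZNRF3 had a mean of 1497 normalised reads with Xenome and RNF43 of 335. RSPO4 was at 10.4, RSPO1 at 3.45 and RSPO2 at 0.0686 with Xenome, and RSPO3 had no Xenome value and was listed at 0 with Kallisto. The ligases were thus transcribed in these libraries, and the R-spondins were at low levels with Xenome.

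Among the secreted antagonists, SFRP2 had a mean of 21.8 with XenofilteR and of 4.07 with Xenome. NOTUM, an enzyme that removes the lipid Wnt proteins need, was at 2.21 and SFRP1 at 1.89 with Xenome. The other 7 antagonists had Xenome means under 1, from 0.0624 for DKK4 to 0.909 for DKK3, with DKK1 at 0.168. The Xenome means of all 10 antagonists summed to 10.9 normalised reads, against 3359 for the 19 ligands and 22847 for the 14 receptors. In the same order, the sums were 29.8, 3373 and 22801 with XenofilteR, and 15.2, 3798 and 24188 with Kallisto. These sums are not per length.

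In the cytoplasm and nucleus, CTNNB1 was at 11998 normalised reads with Xenome. AXIN1, the constitutive scaffold of the destruction complex, was at 1746, and AXIN2, the induced scaffold, was at 432. Of the TCF and LEF factors, TCF7L2 was at 723, LEF1 at 179 and TCF7 at 94.8. The Dishevelled antagonists NKD1 and NKD2 were at 390 and 44.2. All 8 had at least 10 normalised reads in each pipeline.

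Of 56 other Wnt pathway genes listed outside the rule, 55 were matched by symbol, and 47 of them had a mean of at least 10 with Xenome, with a median of 1765 normalised reads. CSNK1A1 and GSK3B, kinases of the destruction complex, were at 10815 and 7440. PORCN and WLS, which make Wnt proteins ready for secretion, were at 288 and 92.3. SOST, the gene of the bone antagonist sclerostin, was at 0.141.

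Because the same 6 libraries were counted by 3 pipelines, the pipelines were compared for each member with a mean of at least 10 in Xenome or Kallisto and a value in both. A pseudocount of 1 was added to both means. Of 36 such members, 7 were at least 2 times higher with Kallisto, against 17.5% of 14863 protein-coding genes under the same rule. No member was at 1/2 or less with Kallisto, against 0.861% of protein-coding genes. The median ratio of Kallisto to Xenome was 1.07 over the members and 1.03 over the protein-coding genes. A pipeline was run once on these libraries, so these ratios have no replicate error.

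The 7 members were WNT7A, RSPO2, WNT9B, RNF43, WNT2B, RSPO1 and NKD2. WNT7A was at 1.69 normalised reads with Xenome and at 155 with Kallisto, a ratio of 57.9. RSPO2 was at 0.0686 and 52.5 normalised reads, a ratio of 50.0. XenofilteR gave values close to those of Xenome for both genes, 1.69 and 0.0684 normalised reads. WNT9B differed 4.96 times (7.95 against 43.4), RNF43 4.11 times (335 against 1381), WNT2B 2.77 times (56.1 against 157) and RSPO1 2.73 times (3.45 against 11.2). NKD2, the nearest above the threshold, differed 2.33 times (44.2 against 104), and TCF7, the nearest below it, differed 1.94 times (94.8 against 185). WNT3 (1.79), WNT4 (1.71) and WNT9A (1.66) followed. The lowest ratios were those of RSPO4 (0.938) and FZD7 (0.971).

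**Figure D2:**
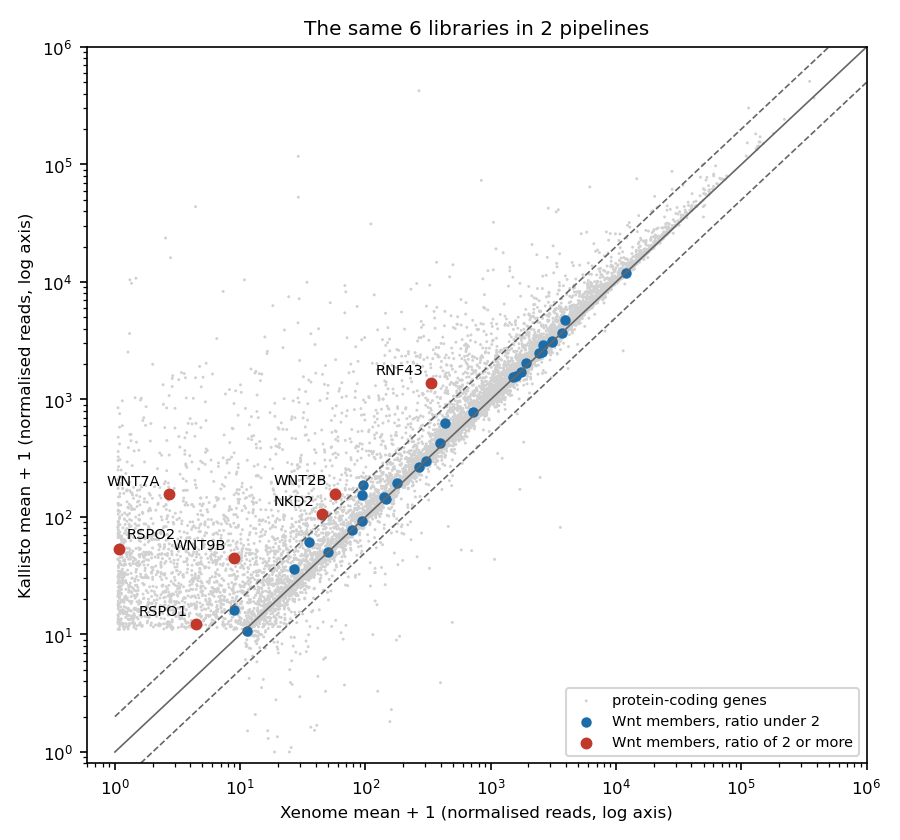
Each point is a protein-coding gene with a mean of at least 10 in either pipeline, by its Xenome mean plus 1 (horizontal) and Kallisto mean plus 1 (vertical), both in normalised reads on log axes, with a solid line of equality and dashed lines at 2 times and 1/2. The 7 red Wnt members lie above the upper dashed line, RSPO2 and WNT7A far above it, and the 29 blue members lie between the lines.

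Features of the annotation and of the marker lists are given beside these ratios as values, and their part in the ratios was not tested. In RNF43, 68.4% of exon bases overlapped the same-strand gene ENSG00000285897, the largest such share among the members. AXIN2 (25.3%, ratio 1.45) and FZD8 (2.00%, ratio 1.05) were the other members with a same-strand overlap. In WNT2B, 21.5% of exon bases overlapped ST7L on the other strand, and in FZD4, with a ratio of 1.21, 18.9% overlapped PRSS23. WNT7A, RSPO1, RSPO2, WNT9B and NKD2 had no exon base in common with another gene. NKD2 had no sequence of 31 bases in common with mouse transcripts, and WNT9B had 0.174% of its sequences in common. The share was 3.17% for WNT7A, 1.53% for RSPO2, 1.27% for RNF43, 0.995% for RSPO1 and 0.469% for WNT2B. Of the osteoblast and mesenchymal markers, 6 of 18 compared were at least 2 times higher with Kallisto, among them DCN (0.966 with Xenome and 64.6 with Kallisto) and THBS2 (4.51 and 109), and 1 was at 1/2 or less, CDH11 (49.6 and 18.7). Of the luminal prostate markers, 0 of 18 differed that much in either direction. Over protein-coding genes, 17.5% were at least 2 times higher with Kallisto. The median Xenome mean was 10101 for the luminal list and 5.44 for the osteoblast list, so level and cell type were not told apart here. Among the other Wnt pathway genes, 4 of 49 compared were at least 2 times higher with Kallisto: GPC4, a glypican, at 144 with Xenome and 5421 with Kallisto, PRICKLE1 at 2.13 and 36.6, PRICKLE2 at 25.5 and 82.2, and TCF7L1 at 3.61 and 10.7.

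Xenome and XenofilteR, which both count aligned reads, differed less. Of 32 members with a mean of at least 10 in either, 31 lay within 10% of each other, and SFRP2 was the exception at 4.50 times higher with XenofilteR (4.07 against 21.8 normalised reads, with the same pseudocount). Of 13369 protein-coding genes with such a mean, 97.1% lay within 10%, close to the share of the members, and 0.165% were at least 2 times higher with XenofilteR. With Kallisto SFRP2 was at 7.48 normalised reads. Of 13 osteoblast and mesenchymal markers compared in the same way, 3 were at least 2 times higher with XenofilteR (COL1A2, COL3A1 and MMP2), 1 was at 1/2 or less (CDH11, at 49.6 with Xenome) and 6 lay within 10%. COL3A1, for one, was at 43.9 with Xenome and 389 with XenofilteR.

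To look behind the means, whole reads were solved from them. A mean of a low gene is a sum of whole reads, each divided by the size factor of its library, and so few sums fit a printed mean that the reads in each library can be found. The 6 solved libraries carry no sample name and are called libraries 1 to 6 from the deepest to the shallowest in human reads. They are assigned to no group, and no values of theirs were averaged or tested. The size factors in Xenome were 5.926, 5.314 and 4.862 in libraries 1 to 3, and 0.4266, 0.1448 and 0.1089 in libraries 4 to 6. Depth, deep and shallow refer throughout to these size factors of human reads. They do not refer to sequencing, which gave at least 40 M reads in every library. Whether the 3 deep and the 3 shallow libraries are the 2 cultures is not given by the table. The co-culture was mixed at 1 C4-2B to 30 MC3T3-E1 cells, and the part of this in the size factors was not tested. Depth and culture therefore cannot be told apart in the values of single libraries. A single read thus counts as 0.1687 normalised reads in library 1 and as 9.184 in library 6, and 3 reads, taken as the floor of detection, as 0.506 and 27.6. All 32 members with a Xenome mean up to 100 had a single solution, against 99.6% of 6818 protein-coding genes with such a mean. For 7 of 8 members with means between 100 and 450, the reads came from the closest pair of a Xenome and a XenofilteR solution, a rule chosen after the data were seen and after a single pair within each of 3 tolerances had been tried on these members, and FZD7 and the 13 members above 450 were not solved.

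Of the 32 members with a single solution, 8 had reads in all 6 libraries, against 29.6% of protein-coding genes with a single solution. The 8 were WNT2B, WNT8B, WNT9A, WNT10A, FZD9, TCF7, NKD2 and SFRP2. In 11 of the 32, no read was found in libraries 4 to 6, against 32.5% of those protein-coding genes. With size factors this far apart, a gene with no read there can still hold a normalised level below the floor, so such a gene was not detectable in libraries 4 to 6 at their depth. RSPO1 was the one member with no read in libraries 1 to 3.

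WNT5A was read 750, 1727, 1397, 91, 47 and 34 times in libraries 1 to 6. These are 127, 325, 287, 213, 325 and 312 normalised reads, so library 1 was lowest, and its 95% Poisson interval of 118 to 136 lay under those of the other libraries. Intervals of this kind cover counting error only, and not the choice between candidate solutions. FZD8, read 556, 872, 658, 56, 26 and 15 times, was also lowest in library 1, with 93.8 normalised reads against 131 to 180 in the others, although the interval of library 1 overlapped those of libraries 4 and 6.

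WNT10B was read 1786, 1402, 1184, 151, 49 and 36 times in libraries 1 to 6, which are 301, 264, 244, 354, 338 and 331 normalised reads. These reads are the closer of 2 candidate pairs. WNT9A was read 571, 654, 590, 30, 6 and 11 times, with normalised values from 41.4 in library 5 to 123 in library 2. WNT8B was read 512, 478, 417, 50, 16 and 7 times, with normalised values from 64.3 in library 6 to 117 in library 4. These ligands were thus read in every library.

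WNT2B was read 296, 270, 359, 26, 4 and 8 times, or 27.6 to 73.8 normalised reads. WNT10A was read 317, 312, 236, 25, 2 and 7 times, or 13.8 to 64.3 normalised reads. Both were lowest in library 5, where the intervals were 7.53 to 70.7 for WNT2B and 1.67 to 49.9 for WNT10A. These overlapped the intervals of library 1, 44.4 to 56.0 for WNT2B and 47.8 to 59.7 for WNT10A. WNT4 was read 270, 299, 295, 7, 4 and 0 times, or 45.6, 56.3, 60.7, 16.4, 27.6 and 0 normalised reads. WNT9B (45, 75, 70, 2, 1 and 0 reads), WNT3 (63, 75, 56, 5, 0 and 0 reads) and WNT3A (27, 42, 37, 1, 1 and 0 reads) had few reads in libraries 4 to 6. Their counts in libraries 5 and 6 were under the floor of 3 reads. In normalised reads, WNT9B was at 7.59, 14.1, 14.4, 4.69, 6.91 and 0, and WNT3 at 10.6, 14.1, 11.5, 11.7, 0 and 0. WNT3A was at 4.56, 7.90, 7.61, 2.34, 6.91 and 0. Libraries 1 to 3 held 95.9% of the summed size factors, and the part of depth in these counts was not tested. WNT7A, with a Xenome mean of 1.69, was read 13, 21, 8, 1, 0 and 0 times, or 2.19, 3.95, 1.65, 2.34, 0 and 0 normalised reads, so its mean of 1.69 rested on 43 reads.

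FZD9, a Frizzled also known from osteoblast mineralization, was read 524, 522, 461, 18, 12 and 6 times in libraries 1 to 6. Its normalised reads were 88.4, 98.2, 94.8, 42.2, 82.9 and 55.1. FZD2 was read 174, 188, 184, 18, 0 and 1 times, or 29.4, 35.4, 37.8, 42.2, 0 and 9.18 normalised reads. Library 5 thus held no FZD2 read, for which the 95% Poisson interval reaches 25.5 normalised reads. LGR5 was read 8, 2, 1, 3, 0 and 1 times, or 1.35, 0.376, 0.206, 7.03, 0 and 9.18 normalised reads, and its highest values rested on 3 reads and 1 read.

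Of the feedback members, AXIN2 (chr17:65528563-65561648, minus strand) was read 1628, 1616, 1485, 218, 71 and 77 times in libraries 1 to 6. This is 275, 304, 305, 511, 490 and 707 normalised reads. NKD1 was read 1820, 1872, 1704, 173, 69 and 49 times, or 307, 352, 350, 406, 477 and 450 normalised reads. RNF43 was read 1835, 1685, 1431, 145, 49 and 45 times, or 310, 317, 294, 340, 338 and 413 normalised reads. The reads of AXIN2, NKD1 and RNF43 are the closest of 31, 13 and 3 candidate pairs, and none of these genes had a single pair within the tolerance of 2 reads plus 7.60%, so their values, and the differences between libraries in them, rest on the choice of rule. NKD2 was read 312, 339, 308, 11, 2 and 5 times, or 52.6, 63.8, 63.4, 25.8, 13.8 and 45.9 normalised reads, and the interval of library 6 (14.9 to 107) lay around those of libraries 1 to 3.

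TCF7 was read 398, 323, 322, 43, 17 and 17 times, or 67.2, 60.8, 66.2, 101, 117 and 156 normalised reads. LEF1 was read 1015, 1076, 1008, 64, 15 and 26 times, or 171, 202, 207, 150, 104 and 239 normalised reads. Its lowest and highest values rested on 15 reads in library 5 (interval 58.0 to 171) and 26 reads in library 6 (156 to 350), and both intervals overlapped that of library 1 (161 to 182).

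**Figure D3:**
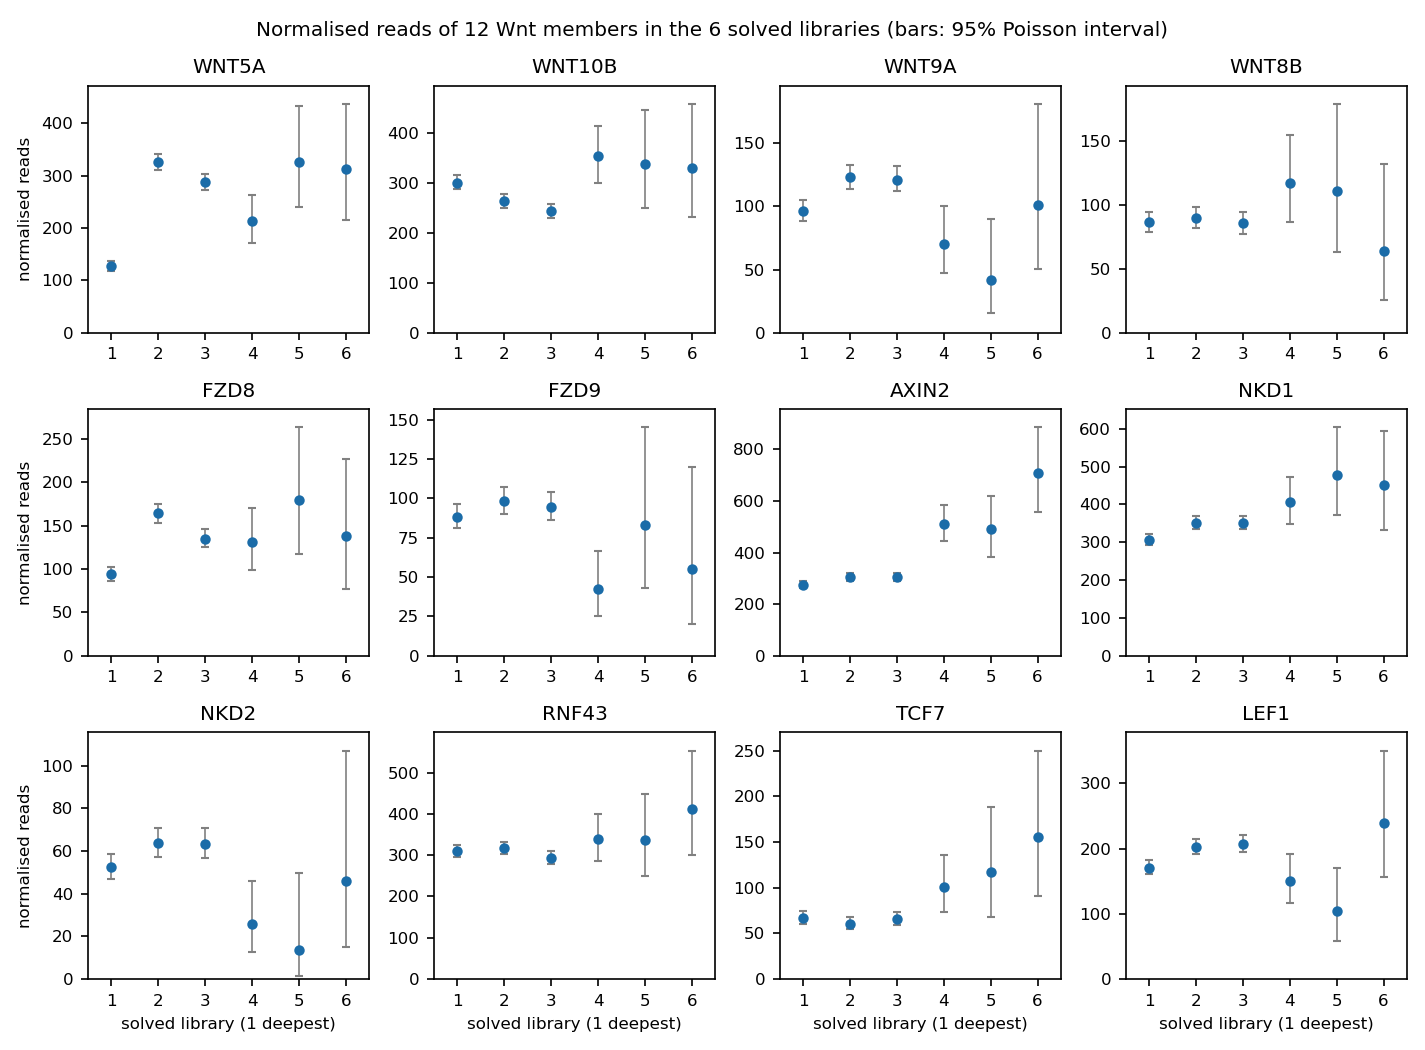
Each panel shows a Wnt member, with the solved library on the horizontal axis (1 deepest, 6 shallowest) and normalised Xenome reads on a vertical axis that starts at 0, points for the value and bars for its 95% Poisson interval. The AXIN2 values, from the closest of 31 candidate pairs, run from 275 to 707, those of NKD2 from 13.8 to 63.8, and WNT5A is lowest in library 1, while the bars widen in the shallow libraries.

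The R-spondins and antagonists rested on few reads. RSPO4 was read 80, 74, 57, 2, 0 and 2 times, or 13.5, 13.9, 11.7, 4.69, 0 and 18.4 normalised reads. RSPO1, with a Xenome mean of 3.45, was read 0, 0, 0, 0, 3 and 0 times, so its whole mean was 3 reads of library 5. RSPO2 was read 2 times in all, both in library 3. DKK1 was read 5 times, DKK2 6 times, DKK4 2 times and WIF1 4 times in the 6 libraries, each in libraries 1 to 3 only. NOTUM was read 60 times, SFRP1 38 times, SFRP4 25 times, DKK3 18 times and SFRP5 5 times. In normalised reads, SFRP1 (4.69) and DKK3 (2.34) were highest in library 4, on 2 reads and 1 read.

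SFRP2 (chr4:153780591-153789083, minus strand) was read 6, 4, 9, 2, 1 and 1 times with Xenome in libraries 1 to 6. With XenofilteR it was read 6, 4, 9, 12, 9 and 4 times. Libraries 1 to 3 thus kept the same number of SFRP2 reads in both pipelines, and libraries 4 to 6 had 4 reads with Xenome and 25 with XenofilteR. In normalised reads, library 5 was at 6.91 with Xenome (interval 0.175 to 38.5) and at 62.3 with XenofilteR (28.5 to 118). WIF1 also gained its 1 added XenofilteR read in library 5, which took its mean from 0.134 to 1.29. By contrast NKD2 was read 11, 2 and 5 times with Xenome and 13, 2 and 5 times with XenofilteR in libraries 4 to 6.

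**Figure D4:**
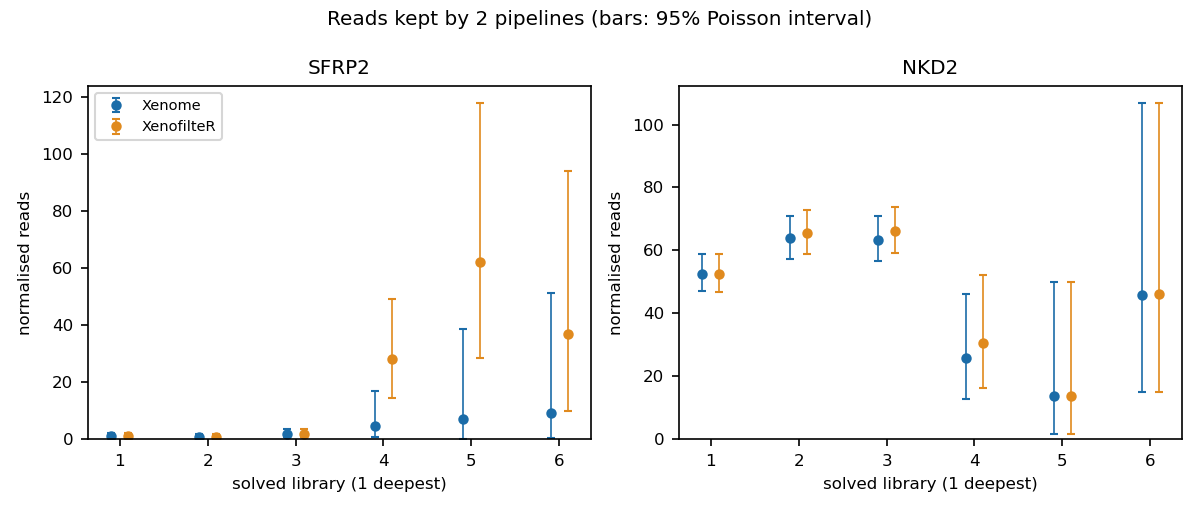
Normalised reads (vertical axis, from 0) of SFRP2 and NKD2 in the 6 solved libraries (horizontal axis, 1 deepest) are shown with Xenome in blue and XenofilteR in orange, with 95% Poisson intervals as bars. SFRP2 has the same values in libraries 1 to 3 and reaches 28.1, 62.3 and 36.8 in libraries 4 to 6 with XenofilteR, while the NKD2 values of the pipelines lie side by side.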

How the data were processed

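Stranded mRNA libraries were sequenced as paired reads of 50 bp to at least 40 M reads. Species were separated by the authors in 3 pipelines. Xenome sorted the raw reads, XenofilteR compared HISAT2 alignments to both genomes, and featureCounts then gave counts per gene on GRCh38. Kallisto used an index that joined the transcriptomes of both species. The strand setting of the counting is not given in the sources used here. The deposited mean of each pipeline is not a count but the authors' mean over 6 libraries of counts divided by DESeq2's size factors, so the means of different pipelines were normalized separately. The remaining deposited columns hold the authors' comparison of co-culture with C4-2B alone (log2 fold change, its standard error, statistic, p-value and adjusted p-value). They were not used, so no group contrast was computed. The table had 41734 rows and 41713 distinct genes.

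Members and lists were chosen with earlier results of these data known. Genes described most fully are members with a mean of at least 10 in 1 pipeline and those that differ at least 2 times between Kallisto and Xenome. Members solved with a mean of at least 3 were treated in the same way. The other members are given in groups or by name with fewer values. Exon lengths and overlaps came from GENCODE release 44 and mouse sequence from GENCODE release M21.

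The normalised value of 1 read was found for each of 6 libraries from the commonest low means, and all whole-read sums within rounding of a mean were enumerated. The search was tested on simulated data and returned the true reads. Between means of 100 and 450, Xenome and XenofilteR solutions were paired where each library differed by at most 2 reads plus 7.60%, the 95% quantile in 1762 genes solved in each pipeline alone. The closest pair was taken where the next was 3 times farther apart. Of the members with only 1 pair within the tolerance, FZD8, LEF1 and WNT5A were taken. FZD7, whose pair was farther apart than theirs, was not. This rule was tested on simulated data too. Intervals are exact Poisson at 95%, and without molecular identifiers they cover counting error only. Searches ran in numba 0.67.0, intervals came from scipy 1.17.1, and pandas 2.3.3 with numpy 2.4.6 held the tables (python 3.11.15), which matplotlib 3.10.9 plotted. Other minimum means, folds, pseudocounts, filters, lengths and pipelines were tried.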

Additional observations from a re-analysis of the deposited data

How the results depend on the processing

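Of 38 alternatives, 32 left a count within 1.5 times of its main value. The members at least 2 times higher with Kallisto numbered 7, and there were 4 at a threshold of 4 times and 11 at 1.5 times. No member was at 1/2 or less of its Xenome mean with Kallisto, and 1 (SFRP2) was when XenofilteR took the place of Xenome. Of the 8 members with reads in all 6 libraries, 5 had at least 3 reads in each, and leaving out each library in turn gave 8 to 11 members. Reads were given for 7 members with means between 100 and 450 by the closest pair. Before that rule was taken, a single pair was tried on the members, which gave 7 members within 2 reads plus 2%, 7 within 2 reads plus 5% and 4 within 2 reads plus 7.60%. An order of libraries 4 to 6 against 1 to 3 was also looked at after the data were seen and is not used as a result, since no label gives these sets and depth splits them. Of 16 solved members with means of 20 to 450, 5 were higher in each of libraries 4 to 6 than in each of libraries 1 to 3. Of these, 4 were solved by the closest pair and 1, TCF7, in Xenome alone. With those tolerances in turn, 5, 4 and 1 were higher, and 3 were lower with each rule. Over 2839 solved protein-coding genes, 8.21% were higher and 24.0% lower. A wider difference between the pipelines than the tolerance would be missed by either rule. No paired analysis was possible because the solved libraries carry no replicate number and were assigned to no group. Depth in human reads limited the values most in libraries 5 and 6, where 3 reads are 20.7 and 27.6 normalised reads.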

Other observations

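The largest gap in the 6 sorted library values of a member is given as a description, since any 6 values have one and no label assigns the libraries to a group. In WNT5A it set library 1 apart (127 against 213), whose interval of 118 to 136 lay under those of the other libraries. In AXIN2 it set library 6 apart (511 against 707), on reads that are the closest of 31 candidate pairs. The interval of library 6 (558 to 884) overlapped those of library 4 (445 to 584) and library 5 (383 to 619). In NKD1, by the closest of 13 pairs, the gap lay between 352 and 406 normalised reads. The intervals overlapped across it (336 to 369 in library 2 and 347 to 471 in library 4).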
